A study of Mus musculus with 21 samples.

Results

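Fusing myocytes are muscle precursors at the step where single cells join into multinucleated fibres. In these data they are the 318 of 87822 cells (0.362%) that the authors' per-cell tables label as fusing. The authors set that label from expression: myogenic cells were placed along an embedding that orders cells by gradual change, the embedding was divided into bins, and the fusing state is the run of bins that follows the committed state. Every cell with that label was kept and no other cell was added.

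Muscle regenerates from muscle stem cells (MuSCs), which leave quiescence after injury, divide, and commit to differentiation when the transcription factor Myog comes on. Committed cells then make the membrane proteins encoded by Mymk and Mymx, and these merge the cell with its neighbours or with a fibre. After fusion the nucleus belongs to a fibre as a myonucleus, so a fusing myocyte exists only briefly as a single cell.

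The 21 samples hold single-cell libraries from the tibialis anterior muscles of 21 mice, 1 mouse per sample, all 20-month-old females of the strain C57BL/6J with no genetic change recorded. Muscles were uninjured (4 mice) or injected with notexin, a snake venom phospholipase that kills fibres, and taken 1 (4 mice), 2 (3), 3.5 (4), 5 (3) or 7 (3) days post injury (dpi). Libraries were made with 10x Chromium v3 chemistry, which tags transcripts with unique molecular identifiers (UMIs) so that copies made in amplification are counted once. The tables give UMIs and genes per cell, shares of UMIs from sets of genes, and several cell labels. Values of single genes, those of Myog, Mymk and Mymx among them, were not used here, so the fusing label is checked against the other labels the tables carry.

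The fusing label covers 2 kinds of cell. Harmony, a method that aligns libraries before clusters are named, puts 262 of the 318 fusing myocytes on the progenitor side (261 Myoblasts/Progenitors and 1 MuSC) and gives 56 a myonuclei label (54 of type IIb and 2 of type IIx, both fast fibre types). The first kind is called progenitor-labelled here and the second myonuclei-labelled. The paper describes the relabelling by bin for MuSCs and Myoblasts/Progenitors, and says that labels of myonuclei were kept. That description does not cover the second kind. A pair of other alignment methods, BBKNN and Scanorama, divide the fusing myocytes along nearly the same line. Of the 262 progenitor-labelled cells, 243 are Committed Progenitors by both methods and 14 are myonuclei by both. Of the 56 myonuclei-labelled cells, 50 are myonuclei by both and 2 are Committed Progenitors by both. In the clusters the authors named before their last filter, 250 of the 318 are Myoblasts/Progenitors, 62 type IIb myonuclei, 4 MuSCs and 2 type IIx myonuclei. The earlier myogenic states hold none of this second kind: 0 of 185 committed myoblasts, 0 of 401 activated MuSCs and 0 of 1285 quiescent MuSCs have a myonuclei label.

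The kinds come from different times. The myonuclei label is on 19 of 21 fusing myocytes in uninjured muscle and, in the order of the injured times, on 9 of 9, 2 of 3, 2 of 187, 8 of 55 and 16 of 43. Fusing myocytes of the first 3 time points are therefore almost all myonuclei-labelled (30 of 33), and those of 3.5 dpi almost all progenitor-labelled. The early libraries go against the name of the state, and the results are given with all fusing myocytes and with the progenitor-labelled ones alone.

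The kinds are also far apart in size. Progenitor-labelled fusing myocytes have a median of 29563 UMIs and 4830 genes per cell, and myonuclei-labelled ones 1612 UMIs and 563.5 genes. Fewer than 750 genes were seen in 45 of the 56 myonuclei-labelled cells and in 13 of the 262 progenitor-labelled cells. The paper states 750 genes as its lower limit for keeping a cell, and 5636 of all 87822 cells (6.42%) are below it. More than 10000 UMIs were seen in 2 of the myonuclei-labelled and 204 of the progenitor-labelled cells. A myonuclei-labelled fusing myocyte is thus usually a small profile, but size does not set the kinds apart fully: of the 59 fusing myocytes under 2000 UMIs, 20 are progenitor-labelled. A cell barcode that occurs in more than 1 library can mark a read assigned to the wrong sample. Of the 318 fusing myocytes, 6 (1.89%) have a barcode also seen in another library, against 1935 of 87822 cells (2.20%) in the whole series, and 0 share it with another fusing myocyte. Shared barcodes are thus no more frequent in fusing myocytes than in the other cells.

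**Figure D1:**
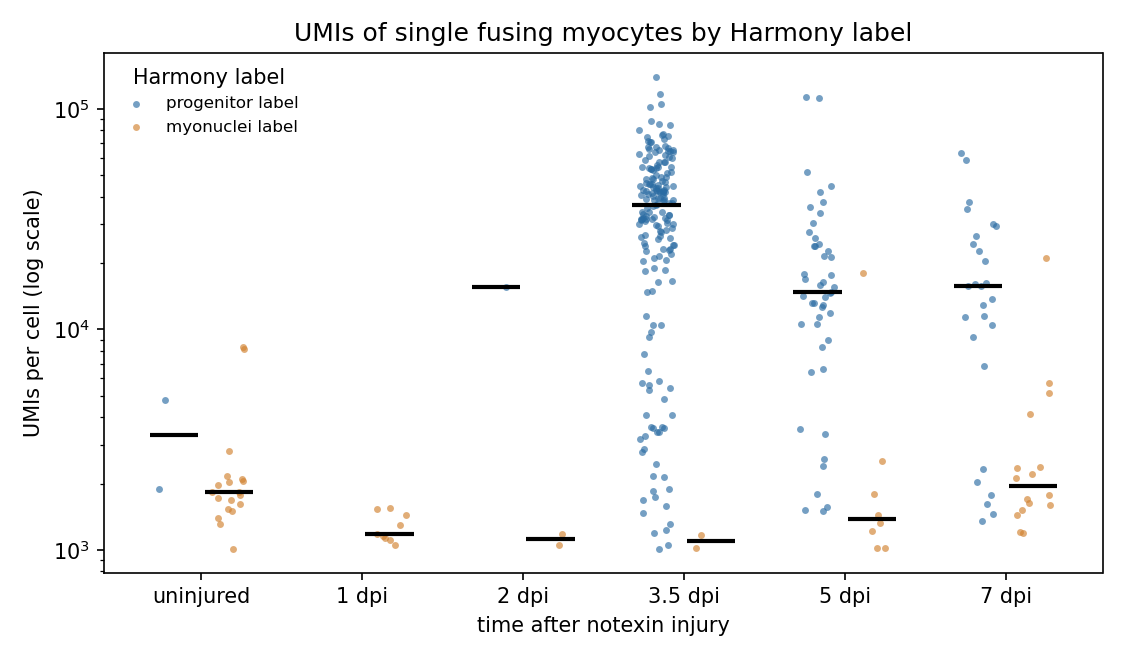
UMIs of each of the 318 fusing myocytes by time point and Harmony label, on a log scale, with the median as a bar. At 3.5 dpi and after, the progenitor-labelled cells reach far above the myonuclei-labelled ones, with a low tail of progenitor-labelled cells that overlaps them.

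The share of fusing myocytes among all cells of a mouse was 0.441% (10 of 2267 cells), 0.117% (4 of 3413), 0.119% (6 of 5029) and 0.103% (1 of 974) in uninjured mice A to D. At 1 dpi it was 0.103% (3 of 2912), 0.251% (3 of 1197) and 0.0782% (3 of 3838) in mice A, B and D, and mouse C had 0 of 4530 cells, which allows a share of up to 0.0662%. At 2 dpi it was 0.00947% (1 of 10556) in mouse A and 0.0628% (2 of 3184) in mouse C, and mouse B had 0 of 4598 cells, which allows a share of up to 0.0652%. The label is rare before 3.5 dpi, and each of these shares rests on 10 cells or fewer. At 3.5 dpi the share was 0.798% (25 of 3131), 0.646% (17 of 2631), 1.32% (89 of 6746) and 1.44% (56 of 3895) in mice A to D. It was 0.226% (12 of 5321), 0.295% (25 of 8472) and 0.678% (18 of 2655) at 5 dpi, and 0.235% (14 of 5968), 0.519% (22 of 4241) and 0.309% (7 of 2264) at 7 dpi, in mice A to C. All 4 mice of 3.5 dpi lie above every mouse of the earlier times and of 7 dpi, while 5 dpi C reaches above 3.5 dpi B. Counting error alone gives 95% intervals of 0.377 to 1.03% for 3.5 dpi B and 1.09 to 1.86% for 3.5 dpi D.

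Group means ± SD over mice were 0.195 ± 0.164% (uninjured, n = 4), 0.108 ± 0.105% (1 dpi, n = 4), 0.0241 ± 0.0339% (2 dpi, n = 3), 1.05 ± 0.387% (3.5 dpi, n = 4), 0.400 ± 0.244% (5 dpi, n = 3) and 0.354 ± 0.147% (7 dpi, n = 3). The share changed over the 6 time points (permutation F test on 21 mice, p = 0.00012, and 0.000268 after Benjamini-Hochberg adjustment over the 25 labels of the tables). The same test called 20 of the 25 labels (80%), so a change over time is common in these muscles and is not a result about fusing myocytes in particular. In these 21 libraries, 187 of the 318 cells (58.8%) come from 3.5 dpi.

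**Figure D2:**
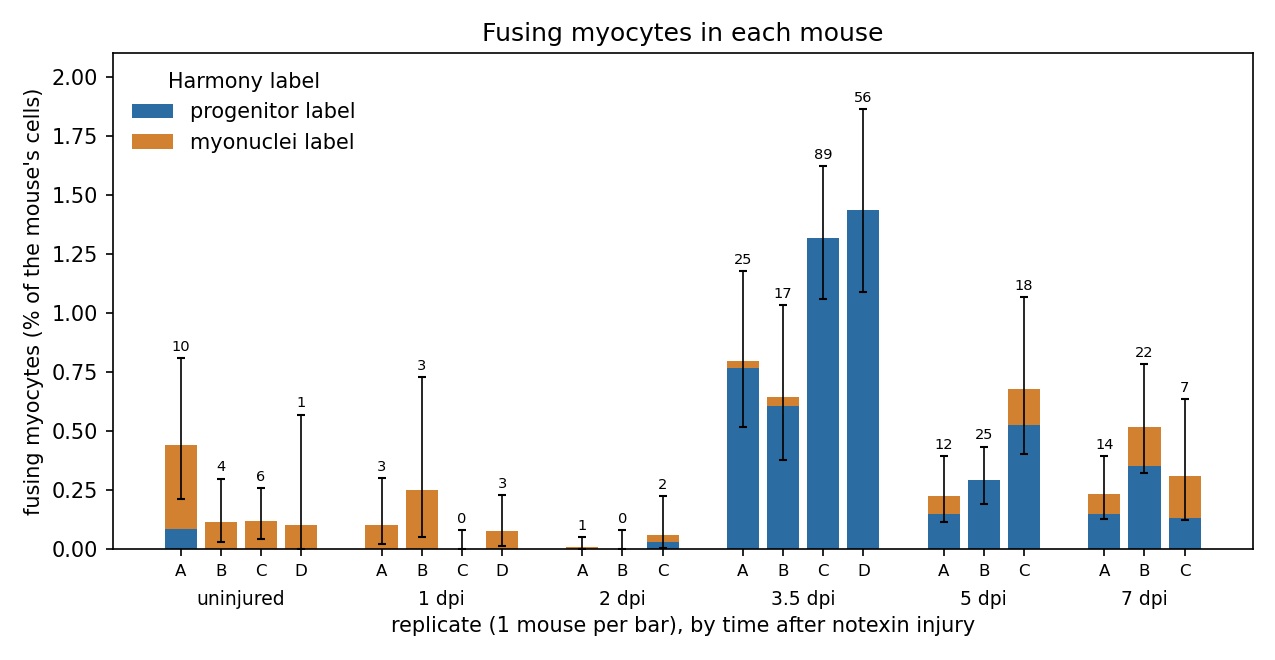
Share of fusing myocytes among the cells of each mouse, divided by Harmony label, with exact 95% binomial intervals and the number of fusing myocytes over each bar. Bars before 3.5 dpi are mostly myonuclei-labelled, and bars of 3.5 dpi almost wholly progenitor-labelled.

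Single steps were tested with exact two-sided permutation of mice, where 4 mice against 4 and 4 against 3 allow no p under 0.029, and 3 against 3 none under 0.1. The share rose from uninjured to 3.5 dpi by 0.855 percentage points (5.38-fold, all 4 mice above all 4, exact p = 0.029, adjusted p = 0.0340). This contrast called 21 of the 25 labels (84%), and 12 of the 25 (48%) were above uninjured without overlap, so this call is common as well and does not single out fusing myocytes. The size of the rise holds when any 1 of the 8 mice is left out (0.726 to 0.990 points, no overlap), but the call is lost without uninjured A, B, C or D (adjusted p = 0.0680 each). The fold rests on uninjured A, whose share is far above the other 3: without it the uninjured mean is 0.113% and the fold 9.29. With the progenitor-labelled cells alone the mean shares are 0.0221% (uninjured), 0% (1 dpi), 0.0105% (2 dpi), 1.03% (3.5 dpi), 0.324% (5 dpi) and 0.212% (7 dpi). Without the myonuclei-labelled cells the fusing state is thus close to absent until 3.5 dpi.

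From 2 to 3.5 dpi the difference was 1.03 points with no overlap (exact p = 0.029, adjusted p = 0.102), and this step called 0% of the labels, while 28% of them were above without overlap. All 3 mice of 2 dpi were below all 4 uninjured mice, with a mean difference of −0.171 points (exact p = 0.114, adjusted p = 0.130), as were 36% of labels. Without 1 mouse this difference lies between −0.202 and −0.0890 points. From 3.5 to 5 dpi the mean difference is −0.651 points with overlap (exact p = 0.114, adjusted p = 0.190), and from 5 to 7 dpi −0.0454 points (exact p = 0.9, adjusted p = 1). The first step within the injured mice, 1 to 2 dpi, gives −0.0839 points with overlap (exact p = 0.229, adjusted p = 0.519), and −0.120 to −0.0363 without 1 mouse. Against uninjured muscle, 1 dpi differs by −0.0871 points (exact p = 0.457, adjusted p = 0.457), 5 dpi by 0.204 (exact p = 0.286, adjusted p = 0.340) and 7 dpi by 0.159 (exact p = 0.286, adjusted p = 0.376). Leaving out 1 mouse moves these values to between −0.135 and −0.0051, between 0.0652 and 0.291, and between 0.0768 and 0.241 points. None of these steps passed for fusing myocytes, and each called 0% of the labels.

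Immune cells enter injured muscle in numbers, and a share of all cells moves with them. Among non-immune cells only, fusing myocytes averaged 0.200% (uninjured), 0.295% (1 dpi), 0.0772% (2 dpi), 4.83% (3.5 dpi), 0.889% (5 dpi) and 0.496% (7 dpi). On this scale 3.5 dpi is above uninjured muscle by 4.63 points, with all 4 mice above all 4 (exact permutation p = 0.029, the smallest possible). The difference does not pass adjustment over the 25 labels (adjusted p = 0.102). Labels of immune cells, which this scale leaves out, still count among the 25. The order of uninjured and 1 dpi turns round. Libraries also differ in quality along the same axis: 48.6% of reads fell in cells in uninjured muscle and 94.6% at 3.5 dpi, and the median UMIs of all cells averaged 3906 and 12086. The fraction of ambient RNA the authors removed averaged 0.0283 and 0.0295. The part of depth and ambient RNA in the result was not tested.

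As a fraction of the fusing myocytes of a mouse, the myonuclei label made up 80% and 100% in uninjured A and C, then 4%, 5.88%, 0% and 0% at 3.5 dpi (A to D), 33.3%, 0% and 22.2% at 5 dpi, and 35.7%, 31.8% and 57.1% at 7 dpi, in the 12 mice with at least 5 fusing myocytes. The uninjured mice lie above all others, 3.5 dpi is lowest, and 5 dpi B sits with 3.5 dpi. The fraction changed over time (permutation p = 0.00078), also with 3.5, 5 and 7 dpi only (p = 0.0331). With at least 10 fusing myocytes per mouse the uninjured group drops out, since only mouse A reaches that number, and the fraction did not pass over the 9 mice left at 3.5, 5 and 7 dpi (exact p = 0.0738).

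Fusing myocytes can also be set against the other myogenic cells alone. They were 31.3%, 19.1%, 29.3% and 32.2% of the cells with any of the 4 myogenic states (quiescent, activated, committed, fusing) in 3.5 dpi A to D, 6.59%, 12.4% and 6.23% in 5 dpi A to C, and 5.20%, 7.53% and 6.86% in 7 dpi A to C. Every mouse of 3.5 dpi is above every later one. Before 3.5 dpi the share is 38.5%, 9.30%, 7.89% and 20% in uninjured A to D, 37.5%, 42.9%, 0% and 27.3% in 1 dpi A to D, and 11.1% and 28.6% in 2 dpi A and C, on totals as small as 5 state cells. The high shares among these early ones set a few myonuclei-labelled fusing cells against very few other state cells. Over the 20 mice with at least 5 state cells the test did not pass (permutation p = 0.316), and 1 mouse decides this: without 1 dpi C, p = 0.00763. Taking out the myonuclei-labelled cells removes 30 of the 33 early fusing myocytes, so the shares of progenitor-labelled cells are low before 3.5 dpi by construction and are given without a test. Their means over 18 mice are 3.70% (uninjured), 0% (1 dpi), 8.33% (2 dpi), 27.5% (3.5 dpi), 7.28% (5 dpi) and 3.91% (7 dpi).

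The balance between fusing myocytes and the state just before them moves the same way. Of committed plus fusing cells, fusing myocytes were 83.3% and 85.7% in uninjured A and C, 75.8%, 50%, 84.0% and 75.7% at 3.5 dpi, 36.4%, 53.2% and 51.4% at 5 dpi, and 36.8%, 42.3% and 53.8% at 7 dpi. Apart from 3.5 dpi B, fusing cells outnumber committed ones clearly at 3.5 dpi and are near parity or below it afterwards. This part changed over time (12 mice with at least 5 such cells, permutation p = 0.0111), with means ± SD of 71.3 ± 14.8%, 47.0 ± 9.25% and 44.3 ± 8.68% at 3.5, 5 and 7 dpi. With progenitor-labelled cells only the means are 70.8%, 42.0% and 31.3%, a wider gap that follows from taking out 2, 8 and 16 cells at these times, so it is no separate support. Committed myoblasts meanwhile averaged 0.404%, 0.432% and 0.458% of all cells at these times. Fusing cells are thus scarcer later relative to committed cells, whose mean share of all cells is similar at 3.5, 5 and 7 dpi. That share also moves with the immune cells, and committed myoblasts were not set against non-immune cells alone.

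Fusing myocytes carry much RNA over the whole series, where 0.362% of the cells hold 1.16% of the UMIs, but not at every time. At 3.5 dpi they hold 3.04% of the UMIs of a library on average and are 1.05% of its cells. At the earlier times the order is the reverse. They hold 0.0821% of the UMIs and are 0.195% of the cells in uninjured muscle, 0.0170% and 0.108% at 1 dpi, and 0.0172% and 0.0241% at 2 dpi. Median UMIs of progenitor-labelled fusing myocytes were 43303, 48669, 39266 and 26110 in 3.5 dpi A to D, 17048, 13243 and 24937 in 5 dpi A to C, and 12899 and 20526 in 7 dpi A and B, the mice with at least 5 such cells. Committed myoblasts of the same mice had 49355, 38762, 34285 and 28526, then 13100, 12913 and 18599, then 10742 and 15135. Progenitor-labelled fusing myocytes have the higher median in all of these mice but 3.5 dpi A and D. Activated MuSCs had 26524, 31167, 21002 and 21444, then 13551, 5195 and 17754, then 6841 and 11487, each below the progenitor-labelled fusing myocytes of its mouse.

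Over all fusing myocytes, no difference in median UMIs from another myogenic state passed, but this depends on the choices made. The mean log2 ratio within mice was −0.34 against committed (5 of 10 mice higher, exact two-sided sign-flip p = 0.213, adjusted p = 0.355), 0.10 against activated (7 of 10, exact p = 0.803, adjusted p = 0.932) and 0.03 against quiescent cells (7 of 12, exact p = 0.932, adjusted p = 0.932). Leaving out 1 mouse moves the ratio against committed cells to between −0.41 and −0.12. With means of log2 UMIs in place of medians the ratios are −0.57 (adjusted p = 0.0228), −0.21 (adjusted p = 0.557) and −0.14 (adjusted p = 0.621), so the first passes and the other 2 change direction. A stricter filter on all cells, which takes out small cells and those high in mitochondrial UMIs, gives 0.20, 0.69 and 0.94. Cells under 2000 UMIs, all removed by it, are 59 of 318 fusing myocytes. They are 3 of 185 committed myoblasts, 15 of 401 activated and 64 of 1285 quiescent MuSCs. The filter thus raises these ratios by construction, and they are given without a test. Progenitor-labelled fusing myocytes had 1.14-fold the UMIs of committed myoblasts (mean log2 ratio 0.19, higher in 7 of 9 mice), 1.64-fold those of activated MuSCs (0.72, 9 of 9) and 1.95-fold those of quiescent MuSCs (0.96, 9 of 9). Of the cells left out for this, 39 of 56 have under 2000 UMIs, against 20 of the 262 kept, and leaving out mostly small cells raises the ratios by construction, so these 3 are a description without a test.

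The lowest ratios are in the 3 mice with the largest part of myonuclei-labelled cells. Against quiescent MuSCs, the log2 ratio of all fusing myocytes is −1.86 and −1.51 in uninjured A and C and −2.14 in 7 dpi C, and against them stand 0.93, 0.97, 1.19 and 0.79 at 3.5 dpi, −0.15, 1.36 and 0.43 at 5 dpi, and 0.73 and −0.40 in 7 dpi A and B. Against type IIb myonuclei it is −0.79 and −0.17 in uninjured A and C, 4.50, 4.70, 4.50 and 3.40 at 3.5 dpi, 1.80, 2.97 and 3.27 at 5 dpi, and 2.36, 1.70 and −0.18 at 7 dpi. Myonuclei are thus the smaller profiles in 9 of 12 mice, and the 3 exceptions are again uninjured A, uninjured C and 7 dpi C. Fusing myocytes had 5.05-fold the UMIs of type IIb myonuclei (9 of 12 mice, exact p = 0.00391, adjusted p = 0.0183) and 4.85-fold those of type IIx (9 of 12 mice, exact p = 0.00732, adjusted p = 0.0183). With at least 3 in place of 5 cells per mouse the log2 ratios, 2.34 and 2.28, drop to 1.57 and 1.50 over 16 mice and no longer pass (adjusted p = 0.0529 for both). Progenitor-labelled cells alone, again without a test, have 11.8-fold and 12.1-fold the UMIs (9 of 9 mice each).

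High UMI totals can come from droplets with 2 cells. Of progenitor-labelled fusing myocytes, 83 of 262 (31.7%) are in the top 1% of their mouse's cells by UMIs, against 21 of 185 committed myoblasts (11.4%). In the top 10% by the doublet score, the fraction of a cell's neighbours that are artificial doublets, are 107 of 262 (40.8%) and 89 of 185 (48.1%). These shares pool cells over mice, and 185 of the 262 fusing cells but 60 of the 185 committed myoblasts come from 3.5 dpi. Median scores were higher in fusing than in committed cells in 7 of 9 mice, by means of 0.302 against 0.291. In these pooled counts, progenitor-labelled fusing myocytes are thus more often among the largest profiles, with doublet scores close to those of committed cells. Within mice they had 1.14-fold the median UMIs of committed myoblasts, while all fusing myocytes had 0.79-fold. Every cell in the tables was called a singlet by the authors, and the part of doublets in these UMI totals was not tested.

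**Figure D3:**
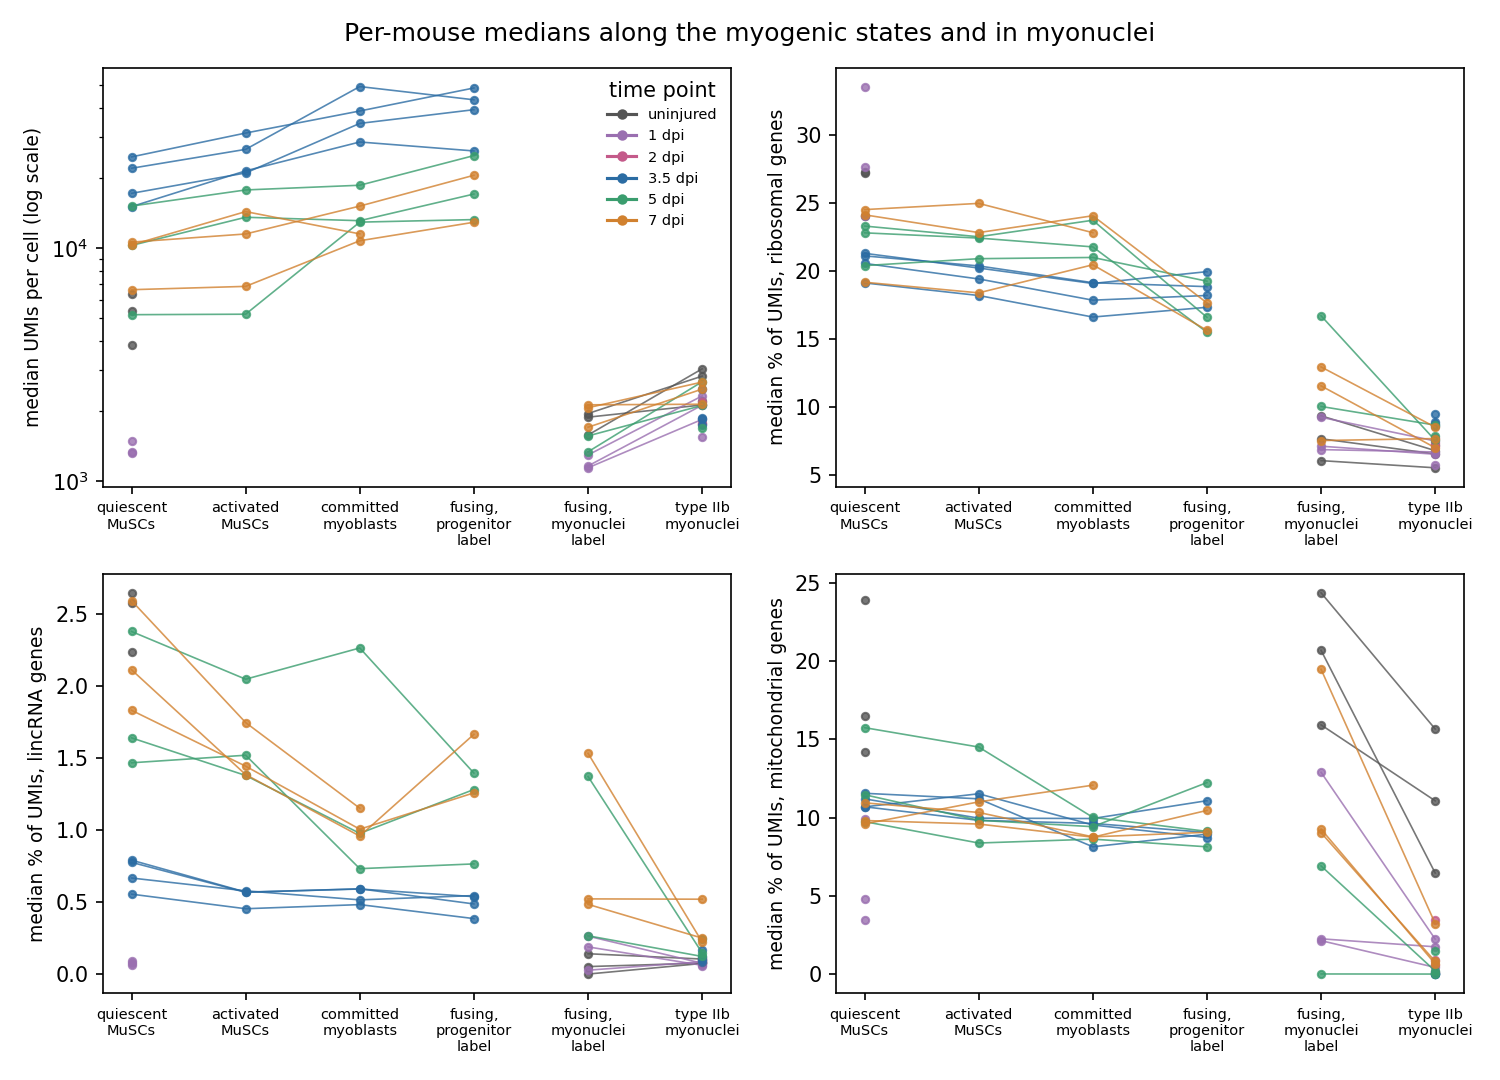
Per-mouse medians of UMIs and of the shares of UMIs from ribosomal, lincRNA and mitochondrial genes along the myogenic states, in both kinds of fusing myocyte and in type IIb myonuclei. Lines join states of 1 mouse with at least 5 cells, or 3 for myonuclei-labelled fusing myocytes.

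Progenitor-labelled fusing myocytes show 4663 genes per cell on average over mice, against 3889 in activated MuSCs (higher in 9 of 9 mice, 1.23-fold) and 4543 in committed myoblasts (higher in 7 of 9). Over all fusing myocytes the ratios fall below parity. They are 0.909-fold against activated MuSCs (6 mice higher, 4 lower) and 0.783-fold against committed myoblasts (3 higher, 7 lower). Leaving out the myonuclei-labelled cells, mostly small, raises these ratios by construction. Genes per cell grow with UMIs, and among cells of equal UMIs the order for progenitor-labelled cells is the reverse. When each progenitor-labelled fusing myocyte is paired with activated MuSCs of its mouse within 10% of its UMIs, it shows fewer genes in 8 of 9 mice (median over mice −334.5 genes, 183 paired cells). Against committed myoblasts it shows fewer in 6 of 8 mice (median −55.5, from −543 in 5 dpi A to 134.5 in 3.5 dpi B, 158 paired cells). Progenitor-labelled fusing myocytes thus show more genes per cell than activated MuSCs but fewer at equal UMIs. Against committed myoblasts the mice differ in direction. The label was set from expression, so differences between states in genes and in shares of UMIs are described without a test.

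The share of UMIs from ribosomal genes averaged 17.6% in progenitor-labelled fusing myocytes of 9 mice, against 20.4% in committed myoblasts (lower in 6 of 9), 20.6% in activated MuSCs (lower in 9 of 9) and 21.3% in quiescent MuSCs (lower in 9 of 9). Long intergenic noncoding RNA (lincRNA) gave 0.926%, against 0.903% in committed myoblasts (higher in 5, lower in 4 of 9), 1.11% in activated (lower in 8 of 9) and 1.36% in quiescent MuSCs (lower in 9 of 9). Protein-coding genes gave 93.1%, against 93.0% in committed myoblasts (higher in 5, lower in 4) and 91.5% in quiescent MuSCs (higher in 9 of 9). Fusing myocytes thus put less of their RNA into ribosomal and lincRNA transcripts than quiescent MuSCs do, while lincRNA and protein-coding shares show no common shift from committed cells. The mitochondrial share, 9.64% against 9.20% in committed myoblasts, is higher in 5 and lower in 4 mice, so the final step brings no common shift there.

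Myonuclei-labelled fusing myocytes differ from ordinary type IIb myonuclei as well. In 11 mice they had 0.668-fold the UMIs (lower in 11 of 11), 11.2% mitochondrial UMIs against 3.86% (higher in 11 of 11, though by only 0.0057 points in 5 dpi A), 9.52% ribosomal UMIs against 7.15% (higher in 10 of 11) and 92.7% protein-coding UMIs against 94.6% (lower in 11 of 11). In the 5 mice with at least 3 cells of both kinds they had 0.0857-fold the UMIs of progenitor-labelled fusing myocytes (lower in 5 of 5), a lower ribosomal share in 4 of 5, and a mitochondrial share of 8.94% against 9.46% (higher in 2, lower in 3). Their median mitochondrial share ranges widely among mice, from 24.4% in uninjured B to 2.13% in 1 dpi A, 2.25% in 1 dpi D and 0.0057% in 5 dpi A. In size they are close to myonuclei and far from the progenitor-labelled kind. Which of their labels fits them better was not tested, since that needs the genes themselves.

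Features of fusing myocytes also differ over time. Of 12 measures, 8 changed over uninjured, 3.5, 5 and 7 dpi in the 12 mice with at least 5 fusing myocytes (9 at unadjusted p under 0.05). Median ribosomal shares were 4.97% and 9.32% in uninjured A and C, 19.9%, 18.8%, 17.3% and 18.2% at 3.5 dpi, 16.4%, 19.2% and 16.3% at 5 dpi, and 12.6%, 15.8% and 14.2% at 7 dpi (permutation p = 0.00026, adjusted p = 0.00312). Uninjured mice are lowest without overlap, and 7 dpi lies below the other injured times when all fusing myocytes are counted. Median mitochondrial shares were 19.5% and 15.9% in uninjured A and C, 8.93%, 8.75%, 9.05% and 11.1% at 3.5 dpi, 10.2%, 9.12% and 8.13% at 5 dpi, and 11.9%, 9.95% and 7.99% at 7 dpi (permutation p = 0.0125, adjusted p = 0.0214). Only the uninjured mice stand apart. UMIs per cell (adjusted p = 0.00435) and genes per cell (adjusted p = 0.0214) changed too, highest at 3.5 dpi. So did the doublet score (adjusted p = 0.00435 by the same permutation test). Its means were 0.221 (uninjured), 0.332 (3.5 dpi), 0.286 (5 dpi) and 0.130 (7 dpi). The part of doublets in these changes was not tested.

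With progenitor-labelled cells only, which leaves 9 mice and no uninjured one, 0 of 14 measures passed adjustment (6 at unadjusted p under 0.05), against 5 of 12 with all fusing myocytes at 3.5, 5 and 7 dpi. The ribosomal medians of 7 dpi then lie among the others: 15.6% and 17.6% in 7 dpi A and B, against 15.5%, 19.2% and 16.6% at 5 dpi and 17.3 to 19.9% at 3.5 dpi (exact permutation p = 0.304, adjusted p = 0.426). For protein-coding genes the differences are about as large either way, with mean shares of 94.1%, 92.4% and 92.2% at 3.5, 5 and 7 dpi in progenitor-labelled cells (adjusted p = 0.0556) and of 94.1%, 92.5% and 92.3% in all fusing myocytes. The part of the mix of kinds in these changes was not tested.

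LincRNA shares of progenitor-labelled fusing myocytes were 0.538%, 0.487%, 0.546% and 0.386% at 3.5 dpi, 0.766%, 1.28% and 1.4% at 5 dpi, and 1.26% and 1.67% in 7 dpi A and B (exact permutation p = 0.0127, adjusted p = 0.0556). All 4 mice of 3.5 dpi are below all 5 later ones. This is not particular to fusing myocytes: the ranges at 3.5 dpi and later are 0.483 to 0.593% and 0.733 to 2.27% in committed myoblasts, 0.454 to 0.579% and 1.38 to 2.05% in activated MuSCs, and 0.556 to 0.792% and 1.47 to 2.60% in quiescent MuSCs. Median UMIs, listed above, are higher in each mouse of 3.5 dpi than in any later one (exact permutation p = 0.0325, adjusted p = 0.0759), as they are in committed and activated cells. Over the median of all cells of the library, progenitor-labelled fusing myocytes had 3.31-fold the UMIs at 3.5 dpi, 2.72-fold at 5 dpi and 2.72-fold at 7 dpi (A and B). That median itself averaged 12086 at 3.5 dpi and 6720 at 5 dpi, and was 5233 and 6895 in 7 dpi A and B. The part of depth in their size was not tested.

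These results rest on 318 cells, of which 33 come from the first 3 time points, and on 3 or 4 mice per time. The small groups limit every single step, and most mice before 3.5 dpi have too few fusing myocytes for any per-mouse median. The fusing label was taken as the authors gave it, and its markers were not used here. Shares of cells depend on dissociation and on the other cells captured, so they are not numbers of fusing myocytes per muscle. All mice were old females, and neither age nor sex was compared.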

How the data were processed

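The members and the lists compared were chosen with earlier results of these data known. The authors aligned reads to the mouse genome build mm10 with Cell Ranger 3.1.0 and processed cells with Seurat 3.1.5, according to the submitters' processing notes, and removed ambient RNA with SoupX and doublets with DoubletFinder. Deposited UMIs per cell are expected counts, since the ambient subtraction by the authors leaves fractions. Deposited genes per cell, cells and reads per cell are counts. Deposited gene-set shares, sequencing saturation and reads in cells are in percent. The deposited doublet score and ambient RNA value are fractions computed by the authors.

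Libraries hold 974 to 10556 cells and 5602464 to 70730171 UMIs, so 1 cell is a far coarser share in some mice than in others. All 87822 cells were kept, 4709 without a state or type label among them. Mouse was the unit throughout. Shares were put on an arcsine square root scale and compared over time by an F statistic with 100000 permutations, or all permutations when fewer than 10 mice entered. Steps used exact two-sided permutation of the difference, ratios within mice exact two-sided sign-flip tests, and adjustment was by the Benjamini-Hochberg method over 25 labels, 5 cell types or the measures. Per-mouse medians needed at least 5 cells (3 for the comparison of kinds). Intervals are Clopper-Pearson and cover counting error only. Upper limits for 0 cells are 3 divided by the cells of the mouse. Mitochondrial, ribosomal and other gene sets are those of the authors. Alternatives covered scale, test, denominator, cell filter, members, cells per mouse and leaving out mice. The scripts were tested on simulated data. Analyses used Python 3.11.15, numpy 2.4.6, pandas 2.3.3, scipy 1.17.1, matplotlib 3.10.9, and R 4.3.3 with edgeR 4.0.16.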

Additional observations from a re-analysis of the deposited data

Results flagged for a closer look

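A pair of single values lie far from the rest of their group. The share of fusing myocytes in uninjured mouse A, 0.441%, is far above the other 3 uninjured mice, and the median mitochondrial share of fusing myocytes in 3.5 dpi mouse D, 11.1%, is above the other 3 mice of that time. The rule was applied to 19 groups and picked 2 values, and chance alone picks about 1 in 20 groups.

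Some differences between times within the UMI ratios were not tested. The log2 ratio of fusing myocytes over quiescent MuSCs is higher by 2.66 at 3.5 dpi (0.79 to 1.19 in 4 mice) than in uninjured muscle (−1.86 to −1.51 in 2 mice). Over type IIb myonuclei it is higher than in uninjured muscle by 4.75 at 3.5 dpi and by 3.16 at 5 dpi, and over type IIx myonuclei by 5.37 and 3.81. These ratios were picked because every mouse of 1 time is above 0 and every mouse of the other below 0. Ranges without overlap are thus built in. The uninjured mice are A and C, whose fusing myocytes are 80% and 100% myonuclei-labelled.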

How the results depend on the processing

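Alternatives to the choices of the analysis were run, and those that use 3.5, 5 and 7 dpi only, or the progenitor-labelled cells in results other than shares of all cells, were chosen after seeing the data. The change of the fusing share over time held in all 30 alternatives, with edgeR, other scales, narrower members and non-immune cells among them. Narrower members take out most fusing myocytes from before 3.5 dpi (30 of 33 with progenitor-labelled cells only). A rise at 3.5 dpi is built in there, so those alternatives are no separate support.

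With the replicate letter as a replicate block, the share at 3.5 dpi minus uninjured is still 0.855 points but the adjusted p is 0.136, as 4 pairs allow no p under 0.125, and this paired test called 0 of the labels. By the study's methods, mice of several time points were collected on the same day, but which samples share a day could not be read from the records at hand. Whether a letter marks a day is not known. With time-point means removed, 18 of 48 pairs of samples with the same letter correlate above 0.1 in their cell labels. The median correlation is 0.012 and the lowest −0.77. Among samples of other times, 2 of 21 samples correlate best with one of their own letter. Among non-immune cells the difference is 4.63 points (exact permutation p = 0.029, adjusted p = 0.102 over all 25 labels, immune ones included). Leaving out 1 mouse gives 0.726 to 0.990 points, with an adjusted p of 0.0680 without any 1 uninjured mouse.

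Some small differences changed sign. The share at 1 dpi minus uninjured is 0.0948 points among non-immune cells, 2 dpi minus 1 dpi is 0.0105 points without myonuclei-labelled cells, and 7 minus 5 dpi runs from −0.132 to 0.0939 when 1 mouse is left out, positive without 5 dpi C (0.0939) or 7 dpi A (0.0144). With the stricter filter, 2 minus 1 dpi gave no value because neither group has a fusing myocyte left, nor did the 3 comparisons among uninjured, 1 and 2 dpi when BBKNN and Scanorama both had to call the cell myogenic.

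The share of fusing myocytes among cells with a myogenic state gave permutation p = 0.0133 with the stricter filter (at least 1000 genes and 2000 UMIs, at most 15% mitochondrial), 0.00325 with progenitor-labelled cells only (where low early shares are built in), 0.00477 with 3.5, 5 and 7 dpi only, and 0.00763 to 0.443 leaving out 1 mouse. The myonuclei-labelled part of fusing myocytes gave exact p = 0.0738 with at least 10 cells per mouse, where no uninjured group is left.

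UMI ratios against other myogenic cells differ between the alternatives. The stricter filter and the use of progenitor-labelled cells only raise them by construction, as small fusing myocytes are taken out. The cause of the other differences was not tested. Log2 ratios against committed, activated and quiescent cells are 0.20, 0.69 and 0.94 with the stricter filter and 0.19, 0.72 and 0.96 with progenitor-labelled cells only. They are −0.57 (adjusted p = 0.0228), −0.21 and −0.14 with means of log2 UMIs. With at least 3 cells per mouse they are −0.026 and −0.089 against activated and quiescent cells, and 1.57 and 1.50 against type IIb and IIx myonuclei (adjusted p = 0.0529 for both). Leaving out 1 mouse gives −0.41 to −0.12 against committed, −0.036 to 0.40 against activated and −0.091 to 0.23 against quiescent cells.

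Of the measures over time, 8 passed, against 3 with the stricter filter, 3 with at least 10 cells per mouse, 0 with progenitor-labelled cells only and 5 with 3.5, 5 and 7 dpi only. In none of these 4 alternatives does an uninjured mouse enter, and the first 3 hold 9 mice in place of 12. The cause of these shifts was not tested. The tables hold no counts per gene, so depth could not be equalised between libraries.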
